A study of Homo sapiens with 6 samples.

Results

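Transcripts of the genes that make and use small RNAs were followed in A549 cells, an established human line from a lung adenocarcinoma. The set holds 10 genes, DROSHA, DGCR8, XPO5, DICER1, TARBP2, PRKRA and the Argonautes AGO1, AGO2, AGO3 and AGO4. The rule goes by name, through every probe set that the array's annotation assigns to exactly 1 of them, and uses no measured value, though the set was proposed with earlier results of these data known. This gave 28 probe sets of 49293 tested and 10 genes of 18244. Groups of 3 arrays each were compared, 6 in all. The cells of the shTIGD1 group had received a lentivirus with a hairpin against TIGD1, a gene related to transposases of the pogo kind, and the cells of the shControl group a lentivirus with a negative control hairpin. Both groups thus carried a hairpin and grew in the same medium, and each group rests on a single hairpin sequence. Whether the cells were pools or clones, and whether the replicates came from separate cultures, is not given in the labels. The p-values rest only on how far these 6 arrays scatter, which may be technical scatter, and the number of arrays limits every value.

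A microRNA begins as a long primary transcript. The nuclease Drosha and its partner DGCR8, together called the Microprocessor, cut a hairpin out of it in the nucleus, and exportin 5 carries that hairpin to the cytoplasm. Dicer, with TRBP (gene TARBP2) or PACT (gene PRKRA) bound to it, cuts the loop away, and an Argonaute protein keeps 1 strand as its guide to matching transcripts. A short hairpin RNA made from a vector uses the later steps of the same route, so the products of these genes also act on the hairpins of the experiment.

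The hairpin sequences are shown first because they are the molecules that both groups of cells had to process. The target sequences given in the labels have 19 bases, written 5′ to 3′.
shTIGD1 target: ctgctaacacaacatccat
shControl target: ttctccgaacgtgtcacgt
A guide that pairs with such a target over its whole length has the reverse complement, shown with bases 2 to 8, the seed, in capitals.
shTIGD1 reverse complement: aUGGAUGUuguguuagcag
shControl reverse complement: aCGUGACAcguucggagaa
The seed of neither hairpin was that of a human mature miRNA in the RefSeq table, with 0 matches each. The first base of the guide in the cells was not measured.

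The deposited values are log2 signals normalized by the authors, and array medians lay between 6.27 and 6.28. The single TIGD1 probe set read 6.88, 6.84 and 6.86 on the arrays labelled shTIGD1 and 6.96, 6.93 and 6.85 on those labelled shControl, and it did not pass the test (log2 difference -0.06, limma adjusted p = 0.427). Every direction below is therefore that of the labels, and shTIGD1 arrays stands for the arrays labelled so. CDKN2A, a gene that A549 cells are known to have lost by deletion, read 7.35 ± 0.12 on the shTIGD1 arrays and 3.93 ± 0.15 on the shControl arrays with its probe set 11718293_a_at (SD, n = 3 each). Its other probe sets differed less, with 6.22 on the shTIGD1 arrays and 5.66 on the shControl arrays for the brightest, 11753744_a_at, and 5.23 and 4.64 for 11753745_x_at. The effect of the hairpin and any difference between the cells of the groups cannot be told apart here. MTAP, next to CDKN2A, had 0 of 6 probe sets past the test, with means from 2.93 to 8.22. CDKN2B, another neighbour, had 1 of 3 probe sets higher (11736163_a_at, 0.42, limma adjusted p = 0.00893). All CDKN2B probe sets were dim, with means from 3.04 to 4.09. Of the 10 epithelial and A549 markers looked at, all had a mean of at least 8.07, but 2 rose and 1 fell. EPCAM, an epithelial adhesion molecule, rose by 0.87 and CDH1, E-cadherin, by 0.66, both more than any member changed, and ALDH3A1 fell by 0.13. The part of these markers in the results below was not tested. Of 8 immune markers 6 lay below 5, among them PTPRC, while CD14 had a mean of 8.21 and CSF1R of 5.69. Of 7 endothelial and fibroblast markers 5 lay below 5, while VWF had a mean of 5.39 and PDGFRB of 5.69. Of these lists only the immune marker ITGAM passed the test, a fall of 0.19. The summed signal of the immune list was 8.75 to 8.85 on the shTIGD1 arrays and 8.74 to 8.91 on the shControl arrays, that of the endothelial and fibroblast list 7.79 to 7.91 and 7.87 to 7.97. In bulk RNA such as this, fewer cells of a kind and less RNA per cell cannot be told apart.

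Among the members, transcripts of the export receptor XPO5 and of DICER1 were lower on the shTIGD1 arrays. One probe set each of AGO1 and AGO3 was lower too, and 1 each of PRKRA and DROSHA was higher. Of the 28 probe sets, 2 rose and 7 fell at a limma adjusted p of 0.05, and 19 did not pass. Over all probe sets 22.0% passed, 11.5% as higher and 10.6% as lower. With dim probe sets (a mean log2 signal under 5) left out, 1 rose and 7 fell of 22, where 30.7% of all probe sets of that brightness passed, 16.2% as higher and 14.5% as lower. For probe sets of that brightness, the share called among the members is near that of the array. By the brightest probe set of each gene, 0 of 10 genes rose and 2 fell (XPO5 and AGO1), where 21.8% of all genes passed, 9.14% as higher and 12.7% as lower. The groups did not overlap in 4 of these 10, against 42.3% of all genes. The groups did not overlap in 13 of 28 probe sets, against 40.9% of all probe sets. No called member probe set changed by 1.5-fold or more (0 of 9), as 688 of 10867 did on the whole array. The median difference of the 28 was -0.06, and that of all probe sets -0.02.

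**Figure D1:**
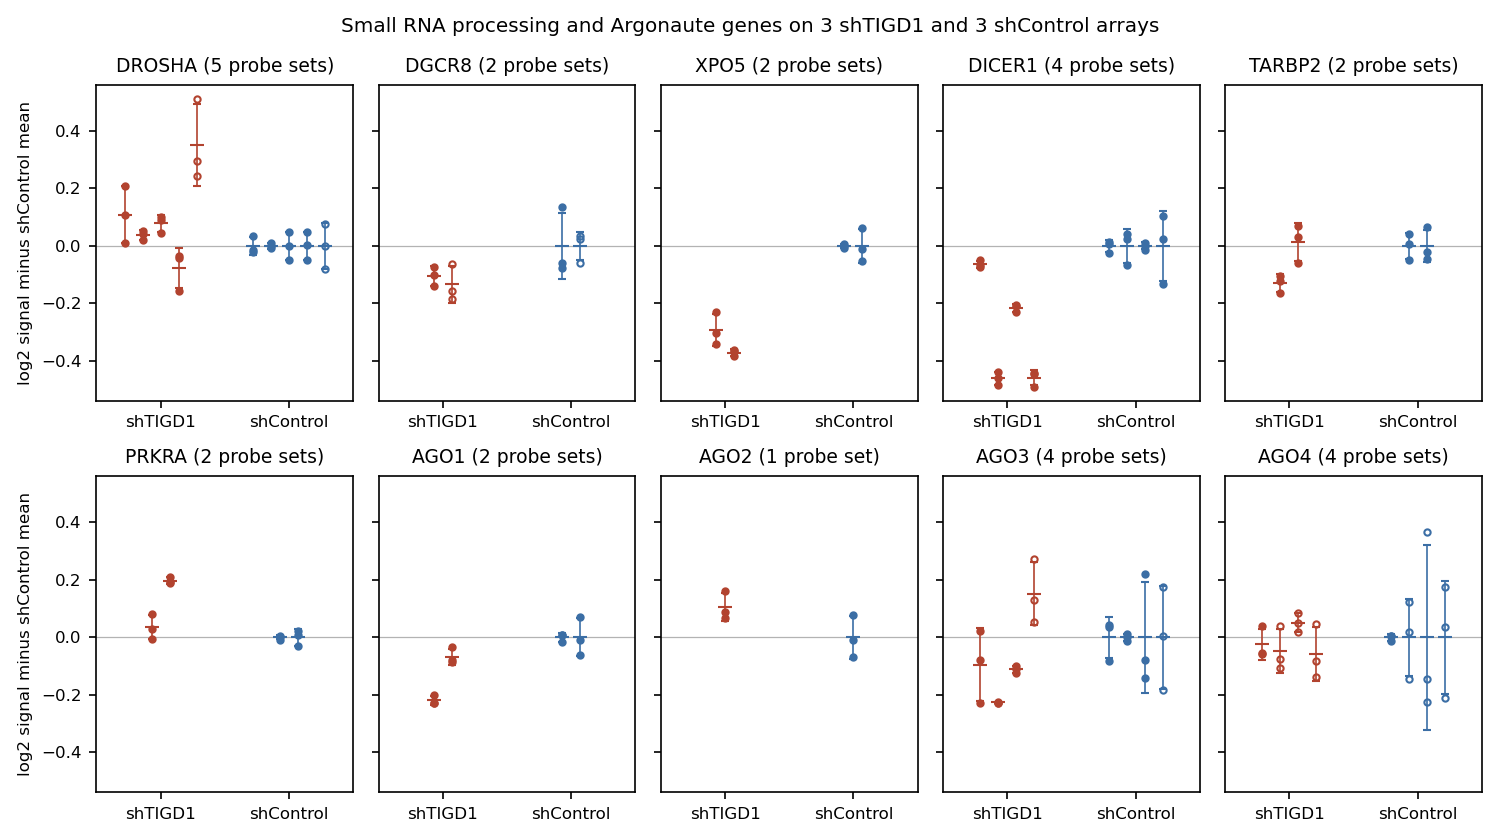
Log2 signal of each probe set minus its shControl mean, on 3 shTIGD1 arrays (red, left) and 3 shControl arrays (blue, right) for the 10 genes; points are arrays, bars the mean ± SD, and open points mark probe sets with a mean log2 signal under 5. Both XPO5 probe sets and all 4 DICER1 probe sets lie below the shControl arrays, by 0.06 to 0.46, while each of the other genes overlaps with the shControl arrays in at least 1 probe set.

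These directions hold for the values as deposited, in which the arrays have been made alike. Bacterial control RNAs added to the samples read lower on the shTIGD1 arrays, with means of 10.25 on the shTIGD1 arrays and 10.46 on the shControl arrays for the bioB, bioC and bioD hybridization controls, and 6.88 and 7.21 for the poly-A controls. Levelling the arrays on these controls adds 0.21 or 0.32 to every difference and moves the median of all probe sets to 0.19 or 0.30. With hybridization controls, 12 member probe sets rose and 3 fell. With poly-A controls, 19 rose and 0 fell, and of the 7 probe sets that fell as deposited 4 then read above 0. A fall below is therefore a fall relative to the bulk of transcripts.

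**Figure D2:**
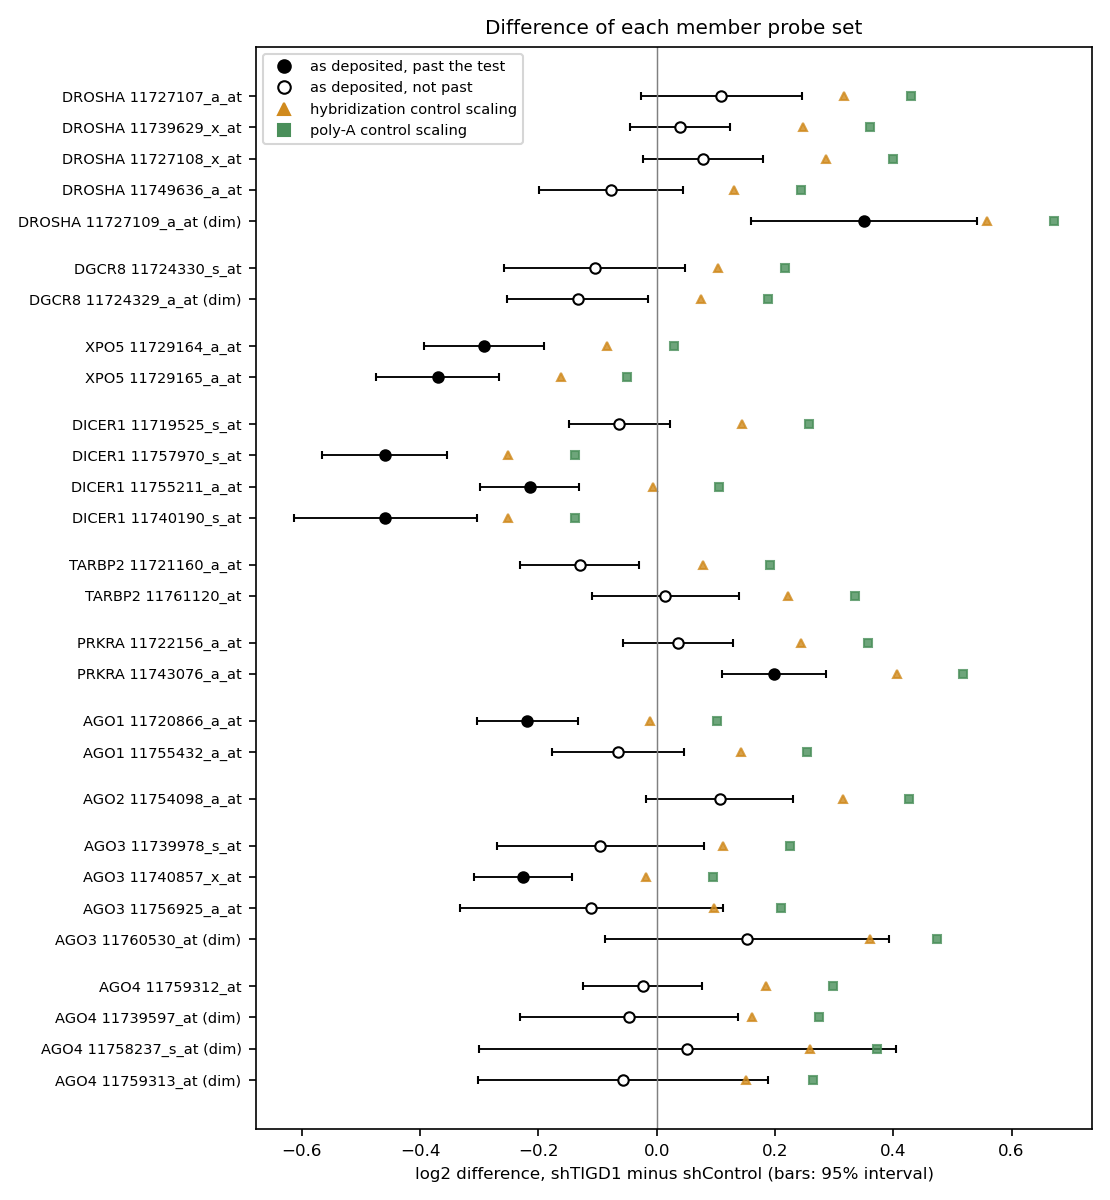
Log2 difference, shTIGD1 minus shControl, of each of the 28 probe sets (circles; bars are 95% intervals; filled, past the test), with the difference after levelling on hybridization controls (triangles) and on poly-A controls (squares). Under poly-A scaling the differences run from -0.14 in DICER1 to 0.67 in the dim DROSHA probe set.

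In the main test the Microprocessor genes gave no call among bright probe sets. DROSHA, the nuclease, has 5 probe sets. The brightest, 11727107_a_at, read 10.30, 10.50 and 10.40 on the shTIGD1 arrays and 10.28, 10.33 and 10.27 on the shControl arrays. The groups overlapped, and the difference of 0.11 (95% interval -0.03 to 0.25) did not pass (limma adjusted p = 0.227). With the trend and robust form of eBayes it passed narrowly (limma adjusted p = 0.0493). The next in brightness, 11739629_x_at, read 10.01, 9.99 and 10.02 on the shTIGD1 arrays and 9.96, 9.97 and 9.98 on the shControl arrays, groups that did not overlap but lay only 0.04 apart (limma adjusted p = 0.482). The remaining bright DROSHA probe sets gave 0.08 and -0.08 and did not pass. The dimmest, 11727109_a_at, read 5.32, 5.05 and 5.11 on the shTIGD1 arrays and 4.73, 4.89 and 4.81 on the shControl arrays, and rose by 0.35 (SE 0.08, limma adjusted p = 0.0236). This call lies close to the threshold and was lost without shControl replicate 1 (limma adjusted p = 0.0740), without shControl replicate 3 (0.0641) and without shTIGD1 replicate 3 (0.0517).

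DGCR8, which holds the hairpin for Drosha and whose own transcript is known to be cut by the Microprocessor, read 7.87, 7.84 and 7.90 on the shTIGD1 arrays and 7.92, 8.11 and 7.90 on the shControl arrays with its brighter probe set 11724330_s_at. Replicate 2 of the shControl group stood above the other 5 arrays, and the difference of -0.10 did not pass (limma adjusted p = 0.297). The dim probe set 11724329_a_at gave 4.50, 4.62 and 4.53 on the shTIGD1 arrays and 4.72, 4.71 and 4.63 on the shControl arrays. Its groups did not overlap, and its difference of -0.13 did not pass either (limma adjusted p = 0.104).

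XPO5, the carrier of hairpins out of the nucleus, was lower in both of its probe sets. The brighter, 11729164_a_at, read 7.65, 7.69 and 7.77 on the shTIGD1 arrays and 7.989, 7.995 and 8.003 on the shControl arrays. The other, 11729165_a_at, read 6.99, 6.97 and 6.98 on the shTIGD1 arrays and 7.30, 7.41 and 7.34 on the shControl arrays. Each shTIGD1 array lay below each shControl array in both. The falls were 0.29 (SE 0.04, limma adjusted p = 0.00508) and 0.37 (SE 0.04, limma adjusted p = 0.00247), or -18.3% and -22.7% in signal. Levelled on hybridization controls the differences were -0.08 and -0.16, and on poly-A controls 0.03 and -0.05.

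In the genome XPO5 starts head to head with POLH, the gene of a DNA polymerase that copies past ultraviolet damage. Starts closer than 500 bases on opposite strands were looked for in RefSeq promoter windows (build GRCh38.p14) after the values had been seen. Of the 9 members with such a window at least 4 had a neighbour of this kind. Of 14494 measured genes 20.9% had one. The member count left out a part of the genome that this percentage keeps, so the values cannot be compared. The stretch between the XPO5 and POLH starts has 146 bases (chr6:43576039-43576184, minus strand), and it is shown because both genes around it moved.
XPO5 to POLH: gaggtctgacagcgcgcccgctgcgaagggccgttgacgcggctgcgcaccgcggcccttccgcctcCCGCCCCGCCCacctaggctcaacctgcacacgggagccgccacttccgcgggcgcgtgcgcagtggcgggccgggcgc
Capitals mark matches to GGGCGG, the core bound by Sp factors, on either strand. Here 2 matches overlap. The same letters occur in the 300-base promoter windows of 8 of 9 members and in 44.6% of 27305 windows, the one listed first for each gene.

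All 4 POLH probe sets fell, by 0.43 to 0.53. The brightest, 11752223_x_at, read 5.53, 5.55 and 5.62 on the shTIGD1 arrays and 5.99, 6.04 and 5.96 on the shControl arrays (limma adjusted p = 0.00155). All 3 shTIGD1 arrays again lay below the shControl arrays. Over the whole array, 60 head-to-head pairs had both brightest probe sets past the test, and in 45 of them (75%) the pair went the same way. XPO5 and POLH are themselves among these pairs. By brightest probe set 1667 of all genes rose and 2317 fell, so many pairs of called genes go the same way without being neighbours. That share was not computed, and the 75% is a description only.

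DROSHA and PRKRA also start next to another gene, and there the pairs can be set side by side. C5orf22, head to head with DROSHA, rose in 2 of 3 probe sets. Its probe set 11739556_a_at read 7.79, 7.82 and 7.80 on the shTIGD1 arrays and 7.503, 7.454 and 7.515 on the shControl arrays, a rise of 0.31 (SE 0.04, limma adjusted p = 0.00273), while the brightest, 11756536_a_at, gave 0.11 (limma adjusted p = 0.147). The other call, of 11751685_a_at (0.41, limma adjusted p = 0.0334), was lost without any 1 of 5 arrays, with limma adjusted p between 0.0512 and 0.0865. The bright DROSHA probe sets across the same stretch did not pass the main test, as given above. PJVK, head to head with PRKRA, has 1 probe set, which read 6.41, 6.41 and 6.39 on the shTIGD1 arrays and 5.98, 6.53 and 6.42 on the shControl arrays and did not pass (0.09, limma adjusted p = 0.675). The stretch between the DROSHA and C5orf22 starts has 207 bases (chr5:31532094-31532300, minus strand), and capitals mark its 3 matches to CCAAT on either strand.
DROSHA to C5orf22: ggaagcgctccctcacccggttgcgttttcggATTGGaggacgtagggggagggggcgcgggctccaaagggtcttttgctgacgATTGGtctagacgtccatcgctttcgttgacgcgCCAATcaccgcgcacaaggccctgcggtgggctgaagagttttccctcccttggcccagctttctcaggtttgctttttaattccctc
CCAAT occurs in 6 of 9 member windows and in 35.7% of all windows. The E-box CACGTG was found in 0 of the 9 and in 7.43% of all. The TATA motif TATAAA was found in 0 of the 9 and in 11.95% of all, and the cAMP response element TGACGTCA in 0 of the 9 and in 1.98% of all. CCGGAAG was found in 1 of the 9 (AGO3) and in 10.7% of all.

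**Figure D3:**
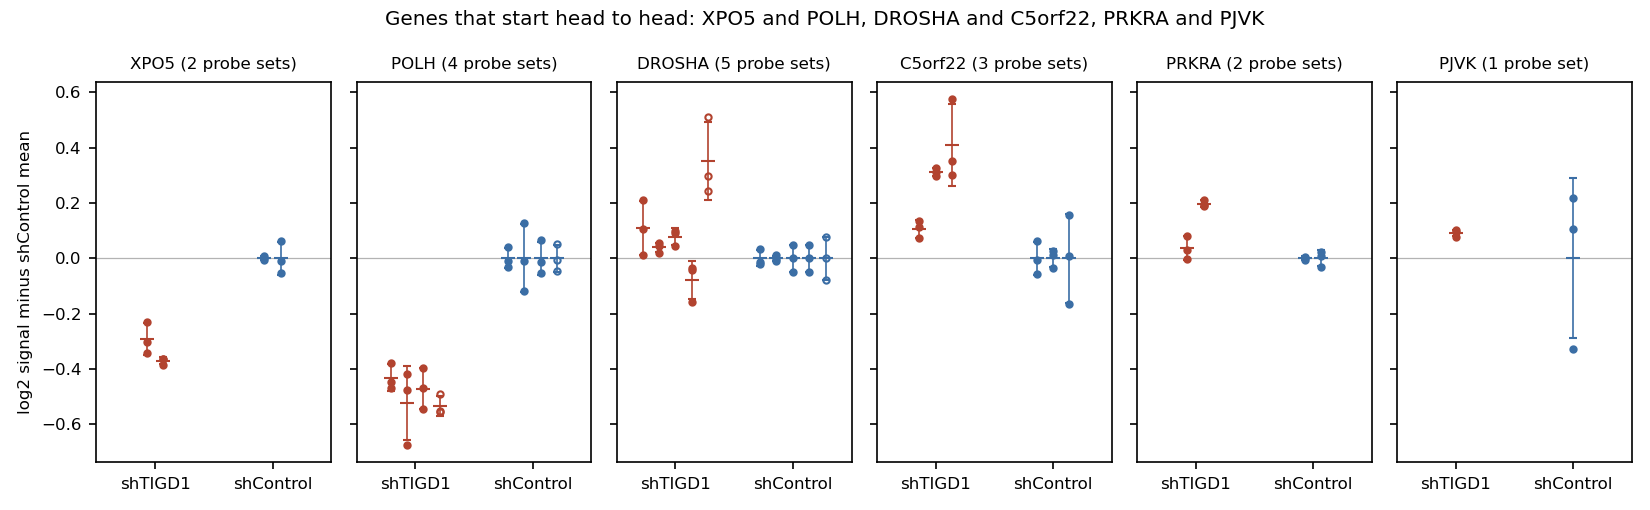
Log2 signal minus the shControl mean for XPO5 and POLH, DROSHA and C5orf22, and PRKRA and PJVK, on 3 shTIGD1 arrays (red, left) and 3 shControl arrays (blue, right) of each panel; points are arrays, bars the mean ± SD, open points probe sets with a mean under 5. XPO5 and POLH lie below the shControl arrays in all 6 probe sets, and C5orf22 lies above them in all 3.

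DICER1, the nuclease that cuts the loop from the hairpin, had the largest falls among the members, but its probe sets differed. The probe set 11757970_s_at read 8.20, 8.18 and 8.22 on the shTIGD1 arrays and 8.69, 8.70 and 8.59 on the shControl arrays, a fall of 0.46 (SE 0.04, limma adjusted p = 0.00134). The probe set 11740190_s_at read 7.08, 7.12 and 7.12 on the shTIGD1 arrays and 7.59, 7.67 and 7.44 on the shControl arrays, also a fall of 0.46 (SE 0.06, limma adjusted p = 0.00445). Both correspond to about -27.3% in signal. The third, 11755211_a_at, fell by 0.22 (SE 0.04, limma adjusted p = 0.00740), with 7.97, 7.95 and 7.97 on the shTIGD1 arrays and 8.18, 8.17 and 8.19 on the shControl arrays. The brightest, 11719525_s_at, read 8.86, 8.84 and 8.83 on the shTIGD1 arrays and 8.88, 8.92 and 8.92 on the shControl arrays. Its groups did not overlap, but the difference of -0.06 (95% interval -0.15 to 0.02) did not pass (limma adjusted p = 0.260).

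The DICER1 probe sets were also set against the brightest one within each array. Such a difference is not altered by a constant added to a whole array, as in the control scalings. Normalization that depends on brightness can still alter it. The difference between 11757970_s_at and 11719525_s_at was -0.66, -0.66 and -0.61 on the shTIGD1 arrays and -0.20, -0.21 and -0.33 on the shControl arrays. The gap between groups was -0.40, and likewise -0.40 for 11740190_s_at and -0.15 for 11755211_a_at. The groups did not overlap in any of the 3, each with p = 0.1 by an exact permutation test, two-sided, the lowest p this number of arrays allows. All 3 share the same reference probe set. Such differences did not overlap either for AGO1 (0.15), DROSHA 11749636_a_at (-0.19), TARBP2 (0.14) and PRKRA (0.16). They overlapped for AGO3, AGO4, DGCR8, XPO5 and the remaining DROSHA probe sets. The DICER1 values thus read unequal on these arrays, but with a lowest possible p of 0.1 this comparison cannot establish an unequal change. Which part of the transcript each one reads was not analysed here. By the manufacturer's naming, probe sets that end in s_at or x_at can also bind other transcripts, which applies to 3 of the 4.

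On both control scalings 11757970_s_at and 11740190_s_at stayed below 0, at -0.25 each with hybridization controls, still past the test, and at -0.14 each with poly-A controls, no longer past it (limma adjusted p = 0.130 and 0.139). The third turned to 0.11 with poly-A controls. The region upstream of DICER1 is shown because 3 of its 4 probe sets moved together. It lies between the DICER1 start and that of the antisense gene DICER1-AS1 (158 bases, chr14:95157530-95157687, minus strand), and capitals mark GGGCGG and CCAAT, 1 match each.
DICER1 to DICER1-AS1: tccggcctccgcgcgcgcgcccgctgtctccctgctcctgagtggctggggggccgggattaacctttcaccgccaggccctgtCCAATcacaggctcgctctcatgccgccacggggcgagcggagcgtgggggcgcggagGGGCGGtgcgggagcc
DICER1 has several starts in the RefSeq table, and the one nearest to its antisense neighbour was taken.

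By the rule of highest correlation over the 6 arrays, the genes most like 11757970_s_at among 10757 bright ones were ETV5, ZNF318 and MMP2, with Pearson's r of 0.9995, 0.9994 and 0.9994. The points are 6 arrays that share the split into groups, and the values are a description. ETV5 read 9.45, 9.45 and 9.48 on the shTIGD1 arrays and 9.90, 9.92 and 9.82 on the shControl arrays.

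The Dicer partners gave 1 call in 4 probe sets. TARBP2, whose product TRBP hands the cut duplex to Argonaute, read 8.65, 8.71 and 8.70 on the shTIGD1 arrays and 8.82, 8.77 and 8.86 on the shControl arrays with 11721160_a_at. The groups did not overlap, and the difference of -0.13 (95% interval -0.23 to -0.03) missed the threshold (limma adjusted p = 0.0717). It passed with the trend and robust form of eBayes (limma adjusted p = 0.0176). With only probe sets of a mean of at least 5 or at least 6 it passed too (limma adjusted p = 0.0310 and 0.0193). Under the control scalings it read 0.08 and 0.19. Its dimmer probe set 11761120_at gave 0.01 (limma adjusted p = 0.878).

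PRKRA encodes PACT, a double-stranded RNA binding protein that also activates the kinase PKR. The probe set 11743076_a_at read 9.65, 9.65 and 9.67 on the shTIGD1 arrays and 9.46, 9.48 and 9.43 on the shControl arrays, and rose by 0.20 (SE 0.04, limma adjusted p = 0.0118). All 3 shTIGD1 arrays lay above the shControl arrays. The slightly brighter 11722156_a_at read 9.62, 9.67 and 9.58 on the shTIGD1 arrays and 9.59, 9.59 and 9.58 on the shControl arrays, and did not pass (0.04, limma adjusted p = 0.565). Within arrays, 11743076_a_at minus 11722156_a_at was 0.03, -0.02 and 0.09 on the shTIGD1 arrays and -0.12, -0.11 and -0.15 on the shControl arrays. This signed difference was 0.16 higher on the shTIGD1 arrays (p = 0.1, exact permutation test, two-sided). Either control scaling adds to every difference, so it could not bring the PRKRA values below 0 and is no test of the rise.

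The stretch between PRKRA and PJVK has 202 bases (chr2:178451176-178451377, minus strand) and is shown because 1 PRKRA probe set rose. It holds 6 matches to GGGCGG and 1 to CCAAT, in capitals.
PRKRA to PJVK: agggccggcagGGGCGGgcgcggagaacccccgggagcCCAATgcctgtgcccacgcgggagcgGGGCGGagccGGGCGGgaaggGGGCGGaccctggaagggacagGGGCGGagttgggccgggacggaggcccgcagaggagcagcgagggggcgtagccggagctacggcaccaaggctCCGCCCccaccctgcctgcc

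Among the Argonautes, the proteins that hold the guide strand, AGO1 was lower in 1 of its 2 probe sets, the brighter one. The probe set 11720866_a_at read 7.76, 7.76 and 7.79 on the shTIGD1 arrays and 7.998, 7.996 and 7.972 on the shControl arrays, a fall of 0.22 or -14.1% in signal (SE 0.04, limma adjusted p = 0.00723). The other, 11755432_a_at, read 6.046, 6.002 and 5.994 on the shTIGD1 arrays and 6.02, 6.07 and 6.15 on the shControl arrays. There the groups overlapped, and the difference of -0.07 did not pass (limma adjusted p = 0.366). Under the control scalings the value of 11720866_a_at was -0.01 with hybridization and 0.10 with poly-A controls, neither past the test.

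AGO2, the Argonaute best known for cutting a fully paired target, is read by 1 probe set. It gave 7.80, 7.81 and 7.89 on the shTIGD1 arrays and 7.72, 7.66 and 7.80 on the shControl arrays. The groups overlapped slightly, and the difference of 0.11 (95% interval -0.02 to 0.23, limma adjusted p = 0.199) did not pass.

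AGO3 has 4 probe sets, of which 1 passed. The probe set 11740857_x_at read 6.13, 6.13 and 6.13 on the shTIGD1 arrays and 6.34, 6.36 and 6.37 on the shControl arrays, a fall of 0.23 (SE 0.03, limma adjusted p = 0.00597). The brightest, 11739978_s_at, read 7.44, 7.18 and 7.33 on the shTIGD1 arrays and 7.33, 7.46 and 7.45 on the shControl arrays, with overlap and no call (-0.10, limma adjusted p = 0.407). The remaining AGO3 probe sets gave -0.11 and, for a dim one, 0.15, and neither passed. Within arrays, 11740857_x_at did not separate the groups from the brightest AGO3 probe set (gap -0.13, p = 0.3, exact permutation test, two-sided). Under the control scalings its value was -0.02 and 0.10, not past the test.

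AGO4 has 4 probe sets, 3 of them with a mean under 5. Its brightest, 11759312_at, read 6.05, 6.05 and 6.14 on the shTIGD1 arrays and 6.11, 6.09 and 6.11 on the shControl arrays. No AGO4 probe set passed (differences from -0.06 to 0.05, limma adjusted p from 0.710 to 0.841). Without shControl replicate 3, the dim 11758237_s_at passed (0.24, limma adjusted p = 0.0316).

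Some genes that give rise to miRNAs are on the array themselves. These probe sets were picked by symbol (MIR followed by a number) after the members' values had been seen. They cover 12 genes with 21 probe sets. By the brightest probe set, 1 rose, 2 fell and 9 did not pass, near the 21.8% called over all genes, and 5 of the 12 were dim. MIR22HG, the host transcript of miR-22, rose in all 5 of its probe sets, by 0.46 to 0.82. The brightest, 11740896_s_at, read 10.28, 10.51 and 10.28 on the shTIGD1 arrays and 9.81, 9.92 and 9.85 on the shControl arrays (0.49, SE 0.07, limma adjusted p = 0.00517). Each shTIGD1 array lay above each shControl array.

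MIR1915HG fell in both of its probe sets, by 0.56 and 0.43. The brighter, 11727298_at, read 8.09, 8.17 and 8.05 on the shTIGD1 arrays and 8.66, 8.64 and 8.68 on the shControl arrays (SE 0.04, limma adjusted p = 0.000755). MIR181A1HG, the second fall, was dim with 3.95, 3.87 and 3.93 on the shTIGD1 arrays and 4.04, 4.16 and 4.32 on the shControl arrays (limma adjusted p = 0.0456). The MIR21 probe set 11763310_at, at 11.84, 11.88 and 11.75 on the shTIGD1 arrays and 11.61, 11.75 and 11.70 on the shControl arrays, did not pass (0.14, limma adjusted p = 0.130). With the trend and robust form of eBayes MIR21 passed (limma adjusted p = 0.00720). MIR17HG, the host of the miR-17 to miR-92a cluster, missed the threshold with its brightest probe set (0.22, limma adjusted p = 0.0505). That probe set passed without shTIGD1 replicate 1 (limma adjusted p = 0.0470), with trend and robust eBayes (0.0418) and with the replicate block (0.0474). It also passed with only probe sets of a mean of at least 5 or at least 6 (limma adjusted p = 0.0249 and 0.0151). The other MIR17HG probe sets gave -0.01 and 0.02 (limma adjusted p = 0.923 and 0.894).

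The mature miRNAs of MIR22HG and MIR1915HG, the hosts called in more than 1 probe set, are shown with their seeds in capitals, since the seed names the family of targets. They come from RefSeq on GRCh38.p14, with miR-22 on chromosome 17 and miR-1915 on chromosome 10.
hsa-miR-22-3p: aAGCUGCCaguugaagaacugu
hsa-miR-22-5p: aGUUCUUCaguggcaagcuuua
hsa-miR-1915-3p: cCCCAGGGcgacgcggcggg
hsa-miR-1915-5p: aCCUUGCCuugcugcccgggcc
The seeds differ from each other and from those of the hairpins. Levels of mature miRNAs were not measured.

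The wider pathway was described with 97 genes in 5 lists by role, of which 94 had a tested probe set. By their brightest probe sets 11 rose and 23 fell, or 36.2%, against 21.8% of all genes. Of all genes with a mean signal of at least 5, 29.2% passed, 12.4% as higher and 16.8% as lower. Of the 94 pathway genes 11 were dim, so the 36.2% includes dim genes and the 29.2% does not. The dim ones were the 9 of the PIWI list, LIN28A and TRIM71, and no dim gene passed. The share called among the bright pathway genes alone is therefore above 36.2%. No set test was run. The median difference was -0.03, and that of all genes -0.04. Under poly-A control scaling 63 rose and 1 fell, so the split between rises and falls is that of the deposited scale.

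Partners of the Microprocessor and other nuclear factors had 1 rise and 4 falls of 14. SRRT, which links capped transcripts to miRNA processing, fell by 0.22 (9.30 ± 0.06 on the shTIGD1 arrays and 9.52 ± 0.02 on the shControl arrays, SD, n = 3 each), and KHSRP, which binds the loop of some precursors, by 0.21. DDX5, a helicase of the Microprocessor, rose by 0.18 with its brightest probe set, and all 5 of its probe sets rose. SAFB fell by 0.19 with its brightest probe set, but another of its 4 rose, so no direction is given for the gene. Its call was lost without any 1 of 5 arrays, with limma adjusted p from 0.0575 to 0.0649. The falls of SRRT and KHSRP read 0.10 and 0.11 under poly-A control scaling. The call of DDX5 was lost without shTIGD1 replicate 1 (limma adjusted p = 0.0510).

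Export and loading factors had 1 rise and 1 fall of 14 (14.3%). TSN, a subunit of the C3PO nuclease that removes passenger strands, rose by 0.27 (SE 0.04, limma adjusted p = 0.00382). Of its 4 probe sets 2 were higher and 0 lower, with a lowest difference of 0.05. RANBP3, a cofactor of nuclear export, fell by 0.18 (limma adjusted p = 0.0386) with its brightest probe set. Only 1 of its 5 probe sets was lower, with 0 higher, and differences ran up to 0.01. The RANBP3 call was lost without any 1 of 5 arrays, with limma adjusted p from 0.0610 to 0.118.

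Effectors of silencing, which shorten the tail of a bound transcript and remove its cap, had 7 rises and 10 falls of 36 (47.2%). TNRC6A, a GW182 protein that links Argonaute to the deadenylases, fell by 0.33 (9.87 ± 0.03 on the shTIGD1 arrays and 10.20 ± 0.11 on the shControl arrays, SD, n = 3 each), with 3 of its 6 probe sets lower and 0 higher. CNOT4, named after the CCR4-NOT complex, fell by 0.41, and DCP1B, a decapping cofactor, by 0.31. Only 2 of the 7 CNOT4 probe sets and 1 of the 2 of DCP1B were lower, with 0 higher. Differences ran up to 0.14 and 0.07. DCP2, the decapping enzyme, rose by 0.31, though not without shTIGD1 replicate 1 (limma adjusted p = 0.0748) or shTIGD1 replicate 3 (0.0708). Of the 5 DCP2 probe sets 2 were higher and 0 lower, with a lowest difference of -0.003.

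Genes of miRNA tailing, trimming and turnover had 2 rises and 8 falls of 21 (47.6%). ZC3H12A, a nuclease also called Regnase-1, fell most, by 0.58 (SE 0.04, limma adjusted p = 0.000370). The exonuclease genes USB1 and PARN fell by 0.40 and 0.34, and the uridyltransferase gene TUT1 by 0.25. USB1 had 2 of its 5 probe sets lower and PARN 2 of 3, with 0 higher in either. Their highest differences, not past the test, were 0.11 and 0.10. The TUT1 call was lost without any 1 of 4 arrays, with limma adjusted p from 0.0553 to 0.0688. The PIWI family and its partners, which serve the germ line, had 0 of 9 past the test, and all 9 were dim.

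**Figure D4:**
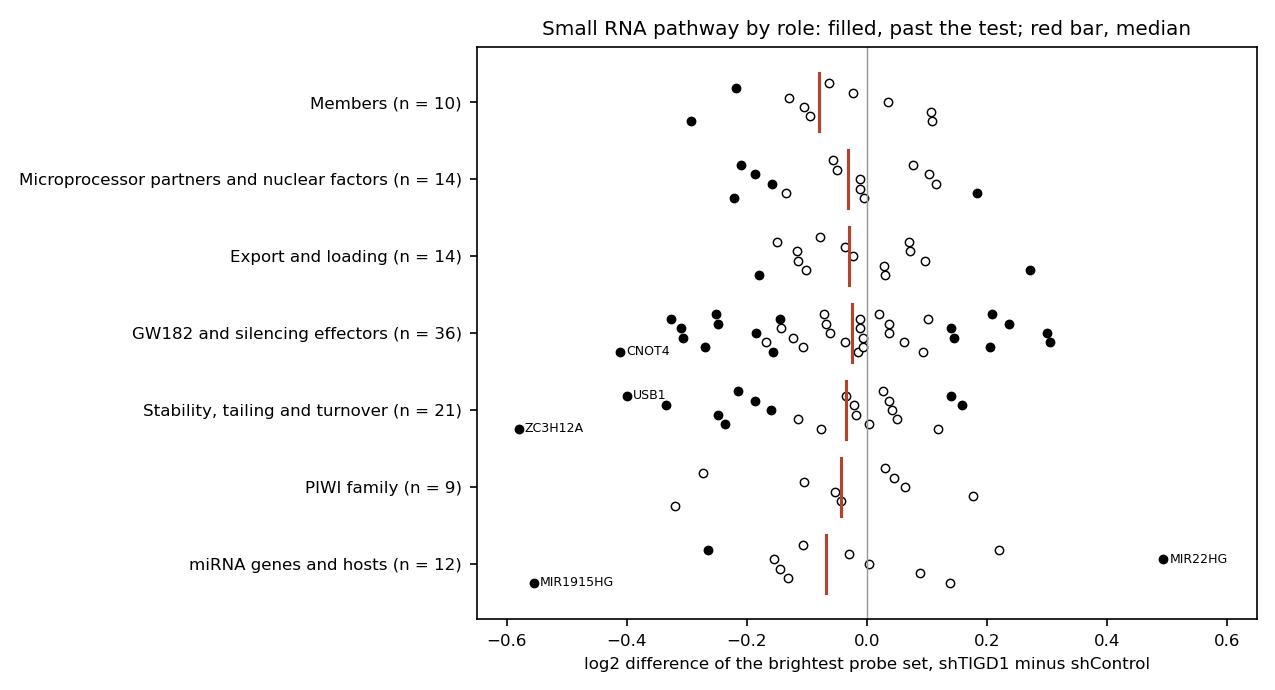
Log2 difference, shTIGD1 minus shControl, of the brightest probe set of each gene for the 10 members, the 5 pathway lists and the miRNA genes and hosts; each point is a gene, filled where it passed the test, and the red bar is the median of the list. Rises and falls occur together in every list with calls except the members, where XPO5 and AGO1 fell and 0 rose, and MIR22HG stands apart at 0.49.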

How the data were processed

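RNA of 6 A549 samples was hybridized to 1-colour Affymetrix arrays. The authors deposited 1 table of normalized values, which the submitters' processing notes tie to GCOS and RMA. No versions are given in the sources used here. The values, 2.38 to 14.8, were read as log2 signals from their range, and the deposited log2 table was used without further scaling.

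Of 49395 probe sets 102 controls were left out and 49293 tested (limma 3.58.1 under R 4.3.3, lmFit then eBayes, Benjamini-Hochberg adjustment over all, threshold 0.05). Groups came from the labels. The platform annotation gave 1 symbol to 45278 probe sets, several to 1333 and none to 2682. Per gene the brightest probe set stood for the gene, and all member probe sets were also reported. No detection calls were used. Dim means a mean log2 signal under 5, and 23 background probe sets had a median of 3.27. Any pair of arrays shared at most 184 equal values, so none is a copy of another. In data simulated on these 49293 probe sets, limma recovered 22% of changes of 1.2-fold and 94% of changes of 1.5-fold. Only 50 probe sets were changed at each fold, all with a mean of at least 6. In all 166 were called there, against 10867 in the data. The adjustment was thus stricter in the simulation, and its recovery does not describe dim probe sets or the test as run here.

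Pathway genes were named by the largest changes past the test in each list, likeness by Pearson's r over bright genes, neighbours by distance of starts. Members and lists were chosen with earlier results of these data known. Same-numbered replicates did not deviate together, so the samples were not treated as pairs in the main test. Alternatives covered scaling, filters, the model, probe set choice, the replicate block and leaving out each array. RefSeq sequences are of GRCh38.p14.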

Additional observations from a re-analysis of the deposited data

How the results depend on the processing

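The 9 member calls kept their direction and side of the threshold with array weights, trend and robust eBayes, equal medians and repeated quantile normalization. Treat against 1.2-fold lost 9 of 9. Scaling on added controls reversed the most member values. With hybridization controls TIGD1 read 0.15, AGO1 11755432_a_at 0.14, AGO3 0.11 (11739978_s_at) and 0.10 (11756925_a_at), AGO4 0.16, 0.18 and 0.15 (11739597_at, 11759312_at, 11759313_at), DICER1 11719525_s_at 0.14, DROSHA 11749636_a_at 0.13, DGCR8 0.074 and 0.10 (11724329_a_at, 11724330_s_at), TARBP2 11721160_a_at 0.078, SAFB 0.021 and RANBP3 0.028. With poly-A controls TIGD1 read 0.27, AGO1 0.10 and 0.25 (11720866_a_at, 11755432_a_at), AGO3 0.23, 0.10 and 0.21 (11739978_s_at, 11740857_x_at, 11756925_a_at), AGO4 0.27, 0.30 and 0.26, DICER1 0.26 and 0.11 (11719525_s_at, 11755211_a_at), DROSHA 11749636_a_at 0.24, DGCR8 0.19 and 0.22, XPO5 11729164_a_at 0.029, TARBP2 11721160_a_at 0.19, SRRT 0.10, KHSRP 0.11, SAFB 0.13, RANBP3 0.14, DCP1B 0.012 and TUT1 0.073. The cause was not tested. All of these are below 0 as deposited.

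Member probe sets that rose, 2 as deposited, were 12 and 19 with the hybridization and poly-A controls, 1 with signals of at least 5 or at least 6, 0 with treat against 1.2-fold, and 1 to 2 with an array left out. Those that fell, 7, were 3, 0 and, with treat, 0. Member genes that rose, 0, were 5 and 7 with the controls, and 1 each with trend and robust eBayes, the mean of all probe sets or the second brightest. Member genes that fell, 2, were 0 with either control scaling and with treat. Pathway genes that rose, 11, were 53 and 63 with the controls, 0 with treat, and 4 to 7 with an array left out. Those that fell, 23, were 4 and 1 with the controls, 1 with treat, 14 by the second brightest probe set, and 12 to 18 with an array left out. Treat asks for more than 1.2-fold, and a left-out array leaves fewer samples.

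Over all probe sets 5648 rose and 5219 fell as deposited, 24423 and 827 with hybridization controls, 34597 and 197 with poly-A controls, 583 and 173 with treat, and 3700 to 4778 and 2976 to 3850 with an array left out. Some values not past the test changed sign with an array left out. AGO4 ran from -0.12 to 0.015 (11739597_at), from -0.16 to 0.030 (11759313_at), both above 0 only without shControl replicate 2, and from -0.060 to 0.24 (11758237_s_at), below 0 without shControl replicate 1 (-0.020) or 2. TARBP2 11761120_at ran from -0.014 to 0.051, below 0 without shControl replicate 2 (-0.0079) or shTIGD1 replicate 1, and PJVK from -0.072, without shControl replicate 1, to 0.20. The alternatives for pathway genes, neighbours and miRNA hosts were chosen after seeing the data.

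Deviations of same-numbered arrays correlated at -0.01, -0.10 and -0.07. These values give no sign that the replicate numbers pair the samples, though 3 arrays per group cannot settle it. With the replicate block 0 member probe sets rose, with limma adjusted p = 0.0724 for DROSHA 11727109_a_at and 0.0566 for PRKRA 11743076_a_at, 4 pathway genes rose and 12 fell, and over all probe sets 3716 rose and 2746 fell.

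Dim probe sets have a mean signal under 5, and the median background probe set reads 3.27.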
